A study of Mus musculus with 12 samples.

Results

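The 7 genes that encode the cyclin-dependent kinase (CDK) inhibitors of the mouse were followed in C2C12 cells, an immortal mouse myoblast line. They are the 3 genes of the CIP/KIP family (Cdkn1a, Cdkn1b and Cdkn1c) and the 4 of the INK4 family (Cdkn2a, Cdkn2b, Cdkn2c and Cdkn2d), chosen by gene name from a table of 54532 genes. The study depleted KEAP1, the adaptor through which CUL3 ubiquitylates the antioxidant transcription factor NRF2, and the cyclin-like ubiquitin ligase adaptor CCNF. Cells received siRNA at 30 nM and poly(A) RNA was sequenced after 48 h. The 4 groups were a control siRNA (siCONTROL), siKEAP1, siCCNF, and both siRNAs together (siKEAP1/siCCNF), with 3 biological replicates each and 12 libraries in all. All groups are the same line, were transfected and carry no other named alteration. Whether 30 nM counts both siRNAs of the combined depletion or each of them is not stated, nor is how the cultures of the replicates were separated, so p-values measure the spread between these libraries.

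CDK inhibitors bind cyclin-dependent kinases and hold back the cell cycle. CIP/KIP proteins (p21, p27 and p57) bind cyclin-CDK complexes, above all those with CDK2, whereas INK4 proteins (p16, p15, p18 and p19) bind CDK4 and CDK6 and keep D-type cyclins from them. In myoblasts, p21, p27, p57 and p18 are known to rise as cells leave the cell cycle to form myotubes, p21 is also the classical target of p53, and the amounts of p21 and p27 protein are further set by ubiquitin ligases, which mRNA does not show.

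The sequences before the start sites are shown for Cdkn1a, the member that rose after siKEAP1, and Cdkn1b, the member that rose after siCCNF. They are the 250 bases before each start in RefSeq (GRCm38.p6, plus strand for both genes), written 5′ to 3′. RefSeq windows were matched for 6 of the 7 members, with 9 starts in all; the member without an entry was Cdkn1c. For the upstream start of Cdkn1a, capitals mark a stretch of 14 bases that begins and ends with CATG, the core of a p53 half-site, at the spacing of adjoining half-sites. In the other windows, capitals mark the SP1 box GGGCGG.
Cdkn1a, upstream start (chr17:29090729-29090978): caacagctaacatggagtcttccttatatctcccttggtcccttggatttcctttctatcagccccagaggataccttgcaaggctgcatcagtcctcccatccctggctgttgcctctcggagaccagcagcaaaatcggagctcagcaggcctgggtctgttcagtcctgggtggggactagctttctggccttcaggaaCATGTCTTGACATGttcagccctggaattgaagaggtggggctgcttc
Cdkn1a, downstream start (chr17:29093519-29093768): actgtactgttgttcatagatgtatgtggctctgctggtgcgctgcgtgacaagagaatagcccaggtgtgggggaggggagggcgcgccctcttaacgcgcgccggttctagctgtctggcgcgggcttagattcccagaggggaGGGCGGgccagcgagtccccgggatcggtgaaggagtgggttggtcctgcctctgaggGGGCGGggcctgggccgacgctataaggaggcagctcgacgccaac
Cdkn1b (chr6:134920151-134920400): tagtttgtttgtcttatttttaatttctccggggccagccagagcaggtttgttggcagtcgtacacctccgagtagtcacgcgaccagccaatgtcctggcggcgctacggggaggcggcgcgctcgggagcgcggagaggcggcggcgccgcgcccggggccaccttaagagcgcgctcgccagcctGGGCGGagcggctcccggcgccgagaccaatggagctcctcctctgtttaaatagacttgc

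The paired CATG cores lay from -48 to -35 relative to the upstream start of Cdkn1a. This motif was chosen after the sequence had been seen, it reads the same on both strands, and it occurred in 0.49% of 32851 windows of the same length and in no other window of a member. SP1 boxes, sought on both strands, occurred in 32.7% of all windows. Cdkn1a had 2 of them before its downstream start (from -104 to -99 and from -46 to -41), Cdkn1b had 1 (from -61 to -56), and Cdkn2d and the upstream start of Cdkn2c had 3 each. The antioxidant response element TGACNNNGC, which NRF2 binds, was found in 10.2% of all windows and in none of those of Cdkn1a, Cdkn1b, Cdkn2c and Cdkn2d. It was found once among the members, before the downstream start of Cdkn2a (from -70 to -62). E2F sites (TTTGGCGC, TTTCCCGC or TTTCGCGC, in 1.53% of windows) were found only before the upstream start of Cdkn2a, and the FOXO site GTAAACA (3.17%) before none. E-boxes (CANNTG, 66.2%) were found in 1 window of Cdkn1a and in that of Cdkn2b, which also held the CHR element TTTGAA (16%). No 2 matches overlapped.

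The libraries held between 18464209 and 37743198 counts, and levels are given as CPM, the count of a gene relative to the total of its library, with TMM scaling between libraries. Keap1 mRNA fell to 14.4% of siCONTROL after siKEAP1 and to 27.5% after siKEAP1/siCCNF, and Ccnf mRNA to 25.3% after siCCNF and 30.2% after siKEAP1/siCCNF, so that every depletion was partial. Ccnf mRNA was also lower after siKEAP1 alone, at 73.2% of siCONTROL (adjusted p = 0.000258, quasi-likelihood test in edgeR). siCONTROL replicate 1 stood apart from the other siCONTROL libraries (chi-square per gene of 35.4 and 43.6 against 2.97 between the others), and siKEAP1/siCCNF replicate 3 from its group (29.4 and 32.2 against 4.75). Results are therefore also given without both of these libraries, a setting chosen after seeing the data. Myoblast markers were present in every library (Myod1 at 35.9 to 135 FPKM, fragments scaled to gene length and library size, and Des at 74.8 to 181 FPKM). Of defining markers of other cell types, Adipoq, Cfd, Ibsp, Ptprc, Adgre1 and Kdr had at most 3 counts in any library, whereas others on the same lists were detected, among them Pparg (148 to 767 counts), Fabp4 (1 to 82), Runx2 (1388 to 3469), Alpl (0 to 104), Cd68 (15 to 246) and Lyz2 (22 to 202). In bulk RNA, fewer cells of a kind and less RNA per cell cannot be told apart.

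Per length of gene, Cdkn1a was the most abundant CDK inhibitor mRNA in each group, and the order below it changed with the depletion. In siCONTROL cells Cdkn1a stood at 60.4 ± 6.55 FPKM (SD, n = 3), Cdkn2d at 50.4 ± 8.16, Cdkn2c at 47.5 ± 4.35, Cdkn1b at 25.9 ± 0.854 and Cdkn1c at 5.53 ± 1.98 FPKM. The ranges of Cdkn1a and Cdkn2d overlapped, as did those of Cdkn2d and Cdkn2c, while Cdkn1b and Cdkn1c lay apart from their neighbours. After siKEAP1, Cdkn1a stood at 114 ± 1.98 FPKM, Cdkn2c at 31.0 ± 1.71, Cdkn2d at 29.8 ± 3.63, Cdkn1b at 22.5 ± 1.77 and Cdkn1c at 1.83 ± 0.262 FPKM, and again the ranges of Cdkn2c and Cdkn2d overlapped. After siCCNF, Cdkn1b came next to Cdkn1a (31.0 ± 0.596 against 52.5 ± 2.82 FPKM), above Cdkn2c (29.3 ± 0.930), Cdkn2d (24.3 ± 1.96) and Cdkn1c (3.87 ± 0.857 FPKM), with no overlap between any neighbours in that order. After siKEAP1/siCCNF the order was Cdkn1a (59.5 ± 3.90), Cdkn2c (32.5 ± 1.80), Cdkn1b (28.3 ± 1.15), Cdkn2d (27.1 ± 2.27) and Cdkn1c (3.42 ± 0.167 FPKM), where the ranges of Cdkn1b and Cdkn2d overlapped. Cdkn2a and Cdkn2b were at 0 in each library.

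**Figure D1:**
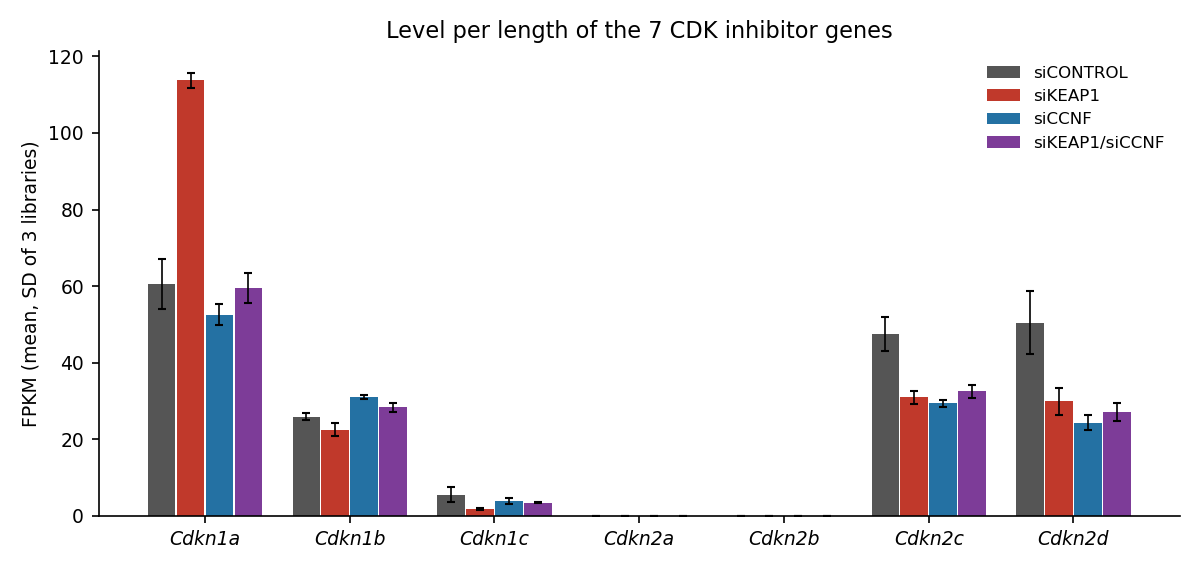
Level of the 7 CDK inhibitor genes in FPKM (vertical axis), with bars for the mean of 3 libraries in each siRNA group and error bars for the SD. Cdkn1a reached 114 FPKM after siKEAP1 against 52.5 to 60.4 FPKM in the other groups, whereas Cdkn2c and Cdkn2d were highest in siCONTROL cells and Cdkn2a and Cdkn2b were at 0.

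Among the 7 genes, Cdkn1a made up 31.9% ± 0.0230 of the summed FPKM in siCONTROL cells and 57.2% ± 2.16 after siKEAP1 (SD, n = 3). Its share was 37.3% ± 1.95 after siCCNF and 39.4% ± 1.08 after siKEAP1/siCCNF. The sum over all 7 genes was nevertheless close in siCONTROL (190 ± 20.6 FPKM) and siKEAP1 cells (199 ± 4.12 FPKM), with overlapping ranges, and lower after siCCNF (141 ± 2.67 FPKM) and siKEAP1/siCCNF (151 ± 6.55 FPKM). After siKEAP1 there were 2.28 ± 0.148 FPKM of CIP/KIP mRNA per FPKM of INK4 mRNA, compared with 0.941 ± 0.0395 in siCONTROL cells, 1.63 ± 0.119 after siCCNF and 1.53 ± 0.0662 after siKEAP1/siCCNF. For such values of 3 libraries against 3, an exact two-sided permutation test cannot give a p below 0.1, so none is given.

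Cdkn1a (ENSMUSG00000023067, chromosome 17, 29090976 to 29100727 of GRCm38) encodes p21, which stops cells in G1 and after DNA damage. Its level in the siCONTROL libraries was 243, 204 and 202 CPM, and in the siKEAP1 libraries 397, 409.8 and 409 CPM. After siCCNF it was 176, 196 and 194 CPM, and after siKEAP1/siCCNF 198, 214 and 225 CPM. Every siKEAP1 library thus lay above every other library, and the siKEAP1/siCCNF libraries overlapped those of siCONTROL. Cdkn1a rose 1.87-fold after siKEAP1 (log2 fold change 0.91, standard error 0.080, adjusted p = 1.40e-06 by quasi-likelihood in edgeR, adjusted over 15122 genes). After siCCNF its log2 fold change of -0.20 was not past the threshold (adjusted p = 0.0537, edgeR), although the groups did not overlap. After siKEAP1/siCCNF the log2 fold change against siCONTROL was -0.03, with a 95% interval from -0.20 to 0.15 (adjusted p = 0.822, edgeR), and against siKEAP1 Cdkn1a fell by 0.93 in log2 units (adjusted p = 7.61e-07, edgeR). Without siCONTROL replicate 1 and siKEAP1/siCCNF replicate 3, these log2 fold changes against siCONTROL were 0.99, -0.11 and 0.02, of which the first alone passed the threshold in edgeR. A gene on the other strand overlaps Cdkn1a, AC167363.2, with 7 to 44 counts per library against 3764 to 10117 for Cdkn1a, and whether counting used strand is not given in the sources used here.

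The nearest tested gene on either side of each member was also looked up, and those named here were chosen after their values were seen. Trp53cor1 (lincRNA-p21, chromosome 17, 29057430 to 29079179, 11797 bp from Cdkn1a) is a long noncoding RNA known as a p53 target. It stood at 0.807, 0.868 and 1.35 CPM in siCONTROL, 1.95, 2.35 and 2.46 CPM after siKEAP1, 0.570, 0.544 and 0.564 CPM after siCCNF and 0.913, 1.45 and 0.791 CPM after siKEAP1/siCCNF. It rose with Cdkn1a after siKEAP1 (log2 fold change 1.16, standard error 0.282, adjusted p = 0.00507, edgeR), on 14 to 58 counts per library. After siCCNF it fell by 0.84 in log2 units (adjusted p = 0.0398, edgeR), and with both siRNAs it differed by 0.08 (adjusted p = 0.845, edgeR). Between siKEAP1/siCCNF and siCCNF cells it differed by 0.92 (adjusted p = 0.104, edgeR), where Cdkn1a differed by 0.18. On the other side of Cdkn1a, Rab44 (13418 bp away, 5 to 31 counts per library) rose by 1.73 after siKEAP1 (adjusted p = 0.00315, edgeR). Rab44 also rose after siCCNF, by 1.12 (adjusted p = 0.0335, edgeR).

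Cdkn1b (ENSMUSG00000003031, chromosome 6, 134920401 to 134925513), which encodes p27, changed little, and in opposite directions after the separate depletions. The siCONTROL libraries stood at 117, 116 and 124 CPM, the siKEAP1 libraries at 112, 97.6 and 98.2 CPM. The siCCNF libraries stood at 139, 146 and 142 CPM and the siKEAP1/siCCNF libraries at 134, 131 and 124 CPM. All siKEAP1 libraries were thus below, and all siCCNF libraries above, those of siCONTROL. Cdkn1b fell by 0.21 on the log2 scale after siKEAP1 (standard error 0.066, adjusted p = 0.0217, edgeR) and rose by 0.26 after siCCNF (standard error 0.066, adjusted p = 0.00539, edgeR). The fall after siKEAP1 lost its call without siCONTROL replicate 3 (-0.19, adjusted p = 0.0652), siKEAP1 replicate 2 (-0.18, adjusted p = 0.0882) or siKEAP1 replicate 3 (-0.18, adjusted p = 0.0894, all edgeR), and also without a filter on low counts and in a fit of the compared libraries alone. After siKEAP1/siCCNF the log2 fold change was 0.13, with a 95% interval from -0.02 to 0.27 (adjusted p = 0.136, edgeR), and Cdkn1b was higher than after siKEAP1 (log2 fold change 0.34, standard error 0.066, adjusted p = 0.000842, edgeR).

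Lockd (chromosome 6, 134929092 to 134956798), a long noncoding RNA that begins 3579 bp downstream of Cdkn1b and is named for that gene, did not follow it in each group. Its level was 9.68, 5.81 and 7.42 CPM in siCONTROL, 3.34, 3.12 and 3.77 CPM after siKEAP1, 5.53, 4.63 and 5.34 CPM after siCCNF and 5.08, 5.17 and 6.46 CPM after siKEAP1/siCCNF. Lockd fell by 1.17 after siKEAP1 (adjusted p = 0.000237), by 0.56 after siCCNF (adjusted p = 0.0177) and by 0.46 after siKEAP1/siCCNF (adjusted p = 0.0489, all on the log2 scale by edgeR). After siCCNF, Cdkn1b and Lockd were therefore called in opposite directions. The highest level of Lockd was in siCONTROL replicate 1, which stood apart, and no fit without that library is given for Lockd or the other neighbours.

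**Figure D2:**
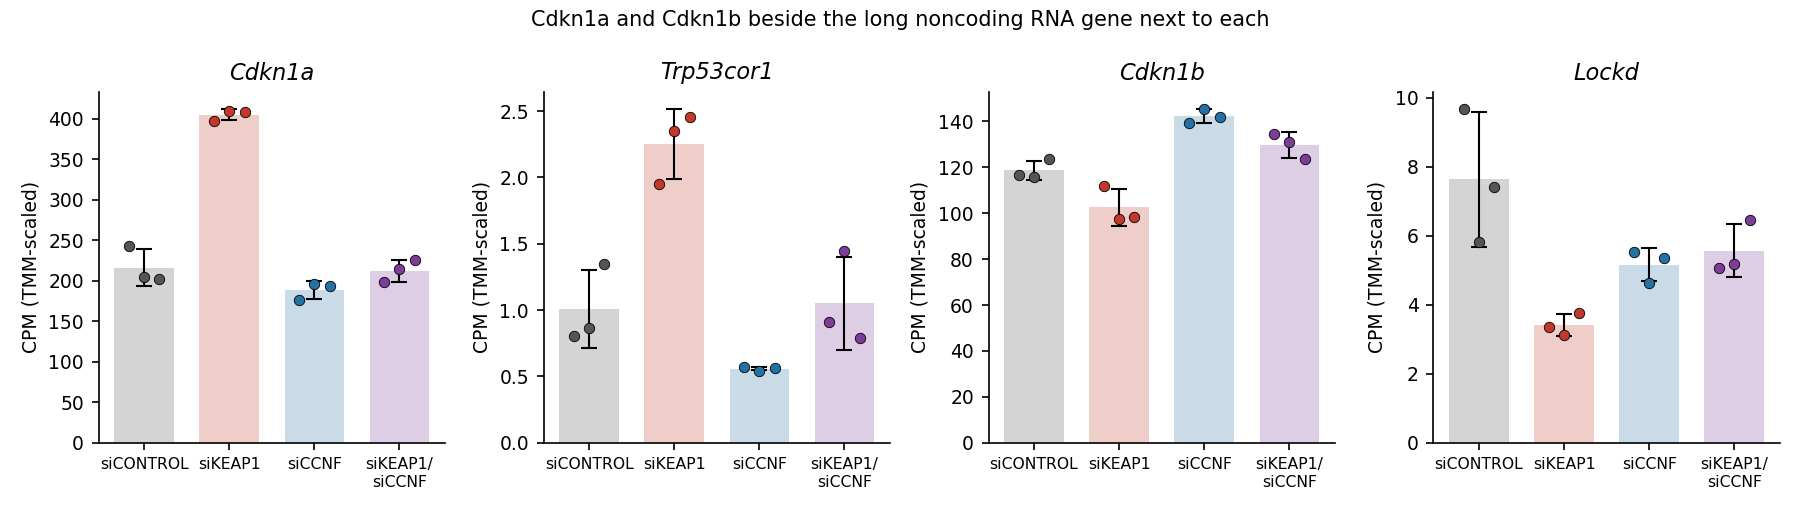
CPM after TMM scaling (vertical axis, a separate scale for each gene) of Cdkn1a, Trp53cor1, Cdkn1b and Lockd in the 4 siRNA groups, with points for libraries, bars for the mean of 3 and error bars for the SD. Cdkn1a and Trp53cor1 were both highest after siKEAP1, whereas after siCCNF Cdkn1b lay above and Lockd below the siCONTROL libraries.

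Cdkn1c (ENSMUSG00000037664, chromosome 7, 143458339 to 143461050, minus strand) encodes p57, an imprinted gene expressed from the maternal allele that acts with p21 in muscle differentiation. It was the least abundant of the detected members, with 73 to 358 counts per library. Its level was 16.0, 9.01 and 9.01 CPM in siCONTROL, 4.27, 3.73 and 3.20 CPM after siKEAP1, 9.92, 6.69 and 7.25 CPM after siCCNF and 7.30, 6.65 and 7.07 CPM after siKEAP1/siCCNF. The siKEAP1 libraries were below all others, and siCONTROL replicate 1 was above all others. Cdkn1c fell 3.05-fold after siKEAP1 (log2 fold change -1.61, standard error 0.234, adjusted p = 0.000108, edgeR), the only change over 2-fold among the members in that comparison. After siCCNF its log2 fold change of -0.51 was not past the threshold (standard error 0.215, adjusted p = 0.0654, edgeR). After siKEAP1/siCCNF it fell by 0.70 on the log2 scale (standard error 0.219, adjusted p = 0.0193, edgeR), and it was higher than after siKEAP1 alone (log2 fold change 0.91, standard error 0.236, adjusted p = 0.00599, edgeR). Its neighbour Slc22a18 (12686 bp away, 6 to 177 counts per library) went the other way after siKEAP1, with a log2 fold change of 2.57 (adjusted p = 0.000102, edgeR). On the other side, Kcnq1ot1 (161790 bp away) did not pass in any comparison with siCONTROL.

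The size of the falls of Cdkn1c rests in part on siCONTROL replicate 1. Without it the fall of Cdkn1c after siKEAP1/siCCNF was -0.37 (adjusted p = 0.0959, edgeR) and lost its call, which it also did without siKEAP1/siCCNF replicate 2 (-0.67, adjusted p = 0.0594, edgeR). Without both libraries that stood apart, the log2 fold change of Cdkn1c was -1.28 after siKEAP1 (adjusted p = 2.44e-05), -0.17 after siCCNF (adjusted p = 0.405) and -0.38 after siKEAP1/siCCNF (adjusted p = 0.108, all edgeR). Myog, the transcription factor of early myotube differentiation, was likewise highest in siCONTROL replicate 1. It stood at 74.6, 32.0 and 29.3 CPM in siCONTROL, 0.232, 0.162 and 0.132 CPM after siKEAP1, 10.1, 6.84 and 7.35 CPM after siCCNF and 1.51, 1.76 and 2.02 CPM after siKEAP1/siCCNF. The summed FPKM of the 20 listed myotube differentiation genes was also highest in siCONTROL cells (63.5 to 141 FPKM, against 14.1 to 16.1 after siKEAP1, 23.2 to 34.1 after siCCNF and 14.2 to 15.5 after siKEAP1/siCCNF), and its part in the level of Cdkn1c was not tested.

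**Figure D3:**
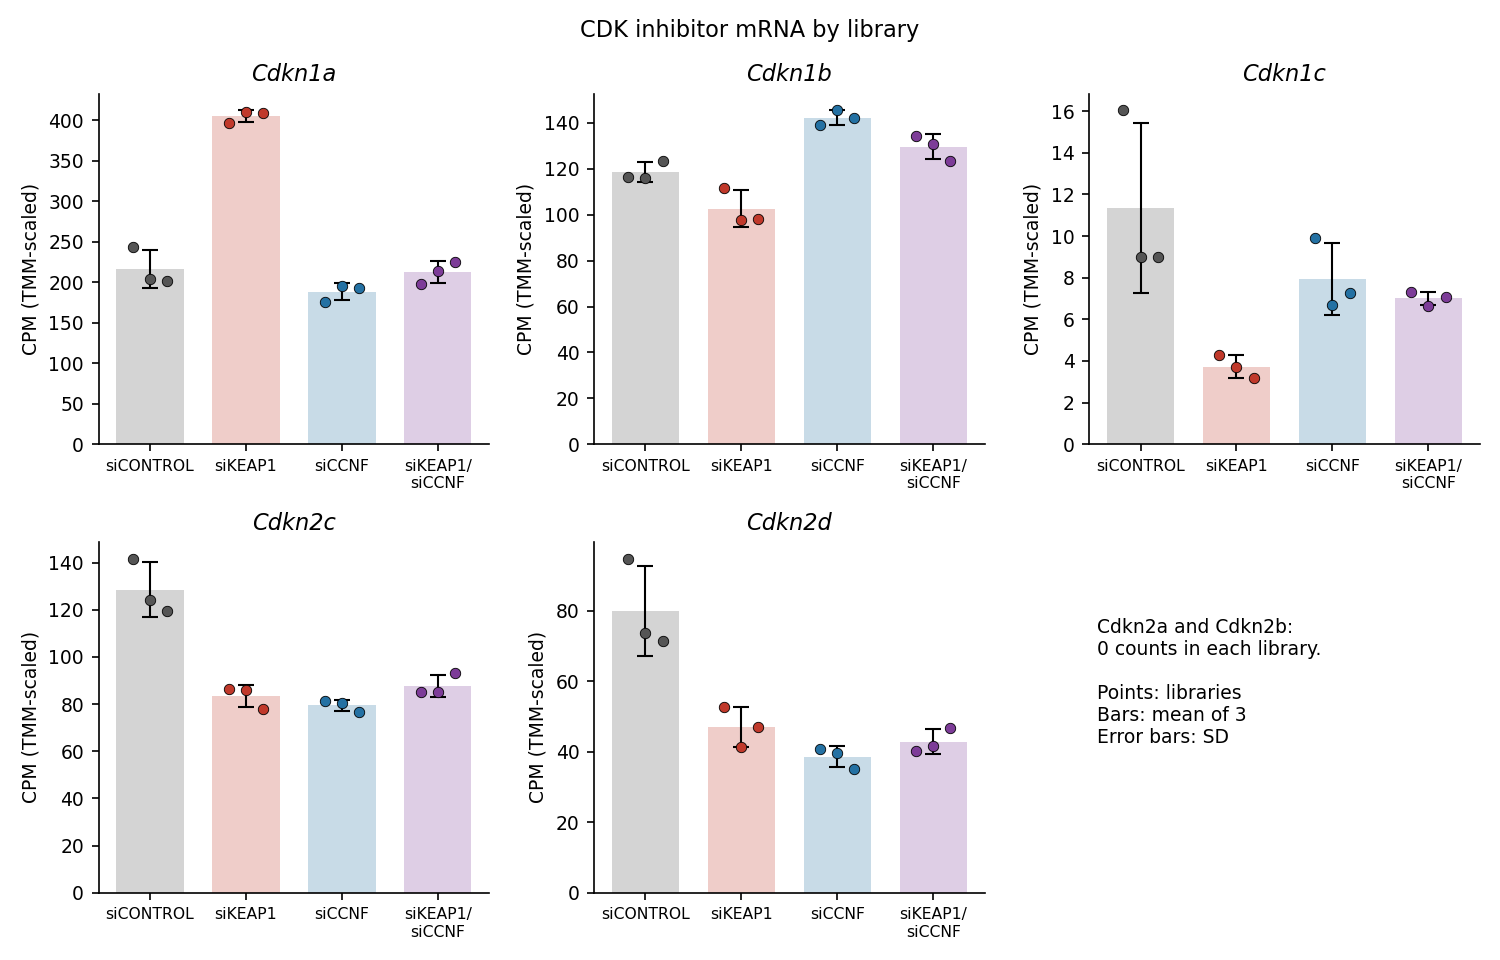
CPM after TMM scaling (vertical axis, a separate scale for each gene) of the 5 detected CDK inhibitors in the 4 siRNA groups, with points for libraries, bars for the mean of 3 and error bars for the SD. Cdkn1a was highest and Cdkn1c lowest in the siKEAP1 libraries, whereas Cdkn2c and Cdkn2d were lower than siCONTROL in each depleted group.

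The INK4 genes Cdkn2c and Cdkn2d fell after each depletion. Cdkn2c (ENSMUSG00000028551, chromosome 4, 109660876 to 109667189, minus strand) encodes p18, which is known to be induced in myotubes. It stood at 142, 124 and 119.7 CPM in siCONTROL, 86.4, 85.8 and 78.1 CPM after siKEAP1, 81.1, 80.4 and 76.8 CPM after siCCNF and 85.1, 85.1 and 93.1 CPM after siKEAP1/siCCNF. No depleted library reached the lowest siCONTROL library. Cdkn2c fell by 0.62 on the log2 scale after siKEAP1 (standard error 0.075, adjusted p = 2.20e-05), by 0.69 after siCCNF (standard error 0.075, adjusted p = 6.80e-06) and by 0.55 after siKEAP1/siCCNF (standard error 0.075, adjusted p = 5.72e-05, all edgeR).

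Cdkn2d (ENSMUSG00000096472, chromosome 9, 21288410 to 21291407, minus strand) encodes p19 of the INK4 family. Its level was 94.8, 73.6 and 71.6 CPM in siCONTROL, 52.8, 41.4 and 47.1 CPM after siKEAP1, 40.9, 39.7 and 35.2 CPM after siCCNF and 40.3, 41.6 and 46.8 CPM after siKEAP1/siCCNF. Again no depleted library reached the siCONTROL libraries. Cdkn2d fell by 0.77 on the log2 scale after siKEAP1 (standard error 0.119, adjusted p = 0.000187), by 1.05 after siCCNF (standard error 0.119, adjusted p = 1.02e-05) and by 0.90 after siKEAP1/siCCNF (standard error 0.119, adjusted p = 4.54e-05, all edgeR). The fall of 2.07-fold after siCCNF was the only one of the members over 2-fold in that comparison. Without the libraries that stood apart, both genes kept their calls, with log2 fold changes after siKEAP1, siCCNF and siKEAP1/siCCNF of -0.56, -0.62 and -0.52 for Cdkn2c and of -0.64, -0.91 and -0.83 for Cdkn2d.

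The nearest tested neighbours of the INK4 genes were mixed. Slc44a2, a choline transporter gene 29291 bp from Cdkn2d, fell by 0.76 after siKEAP1 (adjusted p = 3.01e-07), by 0.62 after siCCNF (adjusted p = 1.60e-06) and by 0.68 after siKEAP1/siCCNF (adjusted p = 9.33e-07, all on the log2 scale by edgeR). Kri1, 441 bp from Cdkn2d on its other side, had log2 fold changes of 0.01, -0.19 and -0.08, none past the threshold. Near Cdkn2c, the noncoding 9630013D21Rik (3023 bp away) fell by 1.49 after siKEAP1 (adjusted p = 0.000252, edgeR), with values of 0.17 and 0.37 after siCCNF and siKEAP1/siCCNF that did not pass.

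Cdkn2a and Cdkn2b, neighbours on chromosome 4 (89274471 to 89294653 and 89306299 to 89311039, minus strand), had 0 counts in all 12 libraries, out of 309738764 counts in all. Cdkn2a encodes both p16 and the p53 activator p19Arf from transcripts with separate start sites, and Cdkn2b encodes p15. A count of 0 allows up to 3 counts per library, or 0.0805 to 0.163 CPM, a limit that covers counting error only, so that expression of either gene was not detectable at this depth and no fold change is given. They belong to a run of 8 annotated genes with 0 counts in all libraries, from 89274471 to 90190009, of which 3 are protein coding. Among all genes listed, 48.5% were at 0, and among protein-coding genes 5128 of 22046 were. On one side of the run, Mtap (89137122 to 89181081), a neighbour in the same region, had 1447 to 3726 counts per library. On the other side, the next gene, Zfp352 (90218820 to 90225702), had 1 count over all 12 libraries. Between Mtap and Cdkn2a lies the noncoding Gm12606 (1068 bp from Cdkn2a), with 3, 3 and 0 counts in siCONTROL, 31, 56 and 36 after siKEAP1, 4, 0 and 3 after siCCNF and 7, 11 and 10 after siKEAP1/siCCNF. Each siKEAP1 library thus had more Gm12606 counts than any other library. The gene passed the filter on low counts through its siKEAP1 libraries, and the siCONTROL libraries were at or under 3 counts. For these reasons neither a p-value nor a fold is given.

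Read against all genes, the number of members that changed depended on the comparison. After siKEAP1, all 5 of the members tested passed the threshold, 1 higher and 4 lower and 1 of them over 2-fold, where 40.6% of all genes tested did (20.4% higher and 20.2% lower, and 11.5% also over 2-fold). The groups did not overlap for all 5, against 51.5% of all genes. After siCCNF, 3 of the 5 passed, 1 higher and 2 lower and 1 over 2-fold, against 47.9% of all genes (22.5% higher, 25.5% lower, and 11.4% over 2-fold), and 4 did not overlap, against 56.4%. After siKEAP1/siCCNF, 3 of the 5 passed, all lower and none over 2-fold, against 44.2% of all genes (20.6% higher, 23.6% lower, 10.3% over 2-fold), and 4 did not overlap, against 48.4%. These comparisons share the siCONTROL libraries. The counts after siCCNF and siKEAP1/siCCNF are near what all genes gave, and the median log2 fold change of all genes tested lay between -0.01 and 0.01 in each comparison.

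**Figure D4:**
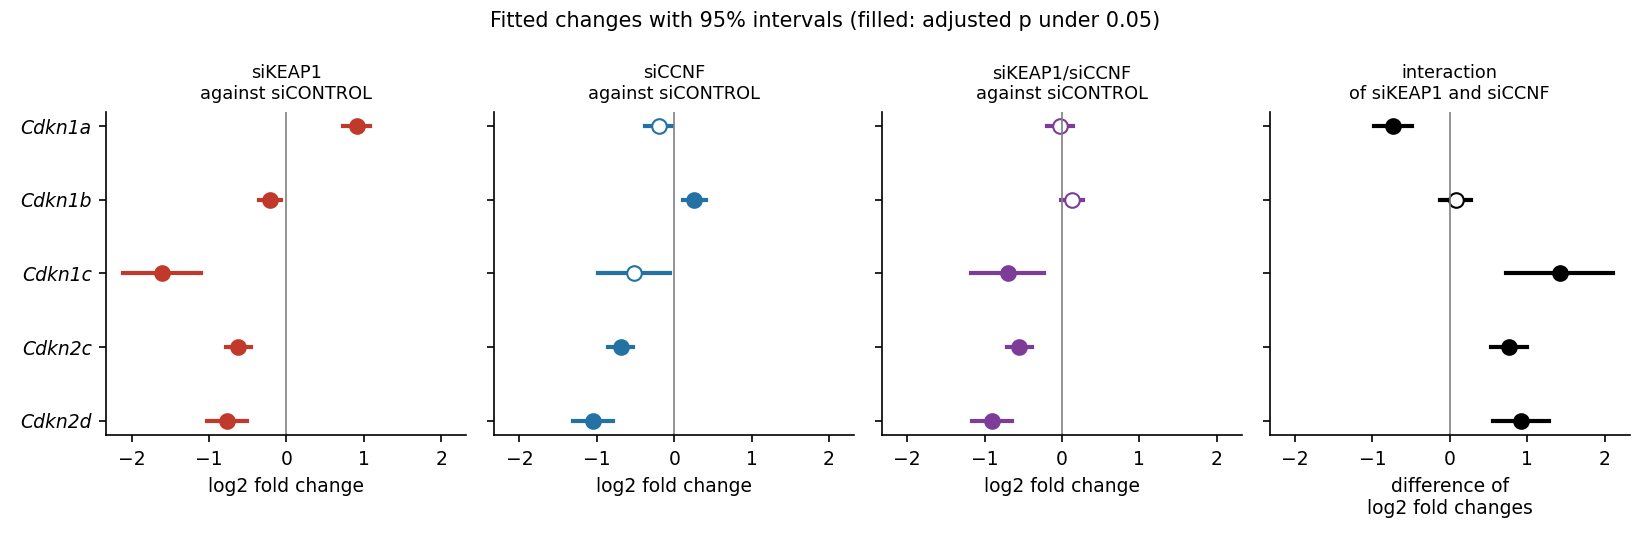
Log2 fold change against siCONTROL of each detected CDK inhibitor after siKEAP1, siCCNF and siKEAP1/siCCNF, and the difference of the siKEAP1 effects (right), with 95% intervals from edgeR as lines and filled points where the adjusted p was under 0.05. Cdkn1a stood above 0 after siKEAP1 (0.91) and near 0 after siKEAP1/siCCNF (-0.03), whereas Cdkn2c and Cdkn2d lay between -0.55 and -1.05 in each comparison with siCONTROL.

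Next, the depleted groups were compared with one another. Between siKEAP1/siCCNF and siKEAP1 cells, 3 of the 5 members passed, 2 higher, 1 lower and none over 2-fold (51% of all genes did, 24.1% higher, 26.9% lower and 14.5% over 2-fold), and 3 did not overlap, against 60.9%. These were the CIP/KIP genes, Cdkn1a lower and Cdkn1b and Cdkn1c higher with both siRNAs, while the log2 differences of Cdkn2c (0.07, 95% interval -0.09 to 0.23) and Cdkn2d (-0.13, -0.39 to 0.12) did not pass. Between siKEAP1/siCCNF and siCCNF cells, none of the 5 passed in edgeR (5.19% of all genes did, 3% higher, 2.19% lower and 0.727% over 2-fold) or in DESeq2, and 3 did not overlap, against 25.8%. The log2 difference of Cdkn1a was 0.18 (95% interval 0.003 to 0.35), at an unadjusted p of 0.0467 in edgeR the only one under 0.05, and those of the others lay between -0.19 and 0.15. Between siKEAP1 and siCCNF cells, 3 of the 5 passed, again the CIP/KIP genes, 1 higher, 2 lower and 2 over 2-fold (57.8% of all genes did, 29.9% higher, 27.8% lower and 18.9% over 2-fold), and 4 did not overlap, against 71.3%. Cdkn1a was higher after siKEAP1 (log2 fold change 1.11, adjusted p = 9.97e-08), Cdkn1b lower (-0.47, adjusted p = 4.24e-05) and Cdkn1c lower (-1.10, adjusted p = 0.00126, all edgeR). Cdkn2c differed by 0.07 (95% interval -0.09 to 0.23) and Cdkn2d by 0.29 (0.03 to 0.55, adjusted p = 0.0540, edgeR), with every siKEAP1 library above every siCCNF library. This difference of Cdkn2d passed under several other settings, among them DESeq2 (0.29, adjusted p = 0.0428), the replicate block (0.28, adjusted p = 0.0473) and the fit without the libraries that stood apart (0.28, adjusted p = 0.00527).

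To ask whether siKEAP1 acted differently in CCNF-depleted cells, its log2 effect there was compared with its effect in control cells (the interaction). This difference passed for 4 of the 5 members, against 21% of all genes tested (10.6% higher, 10.5% lower and 6.19% over 2-fold). For Cdkn1a it was -0.73 (standard error 0.113, adjusted p = 0.000571), for Cdkn1c 1.422 (standard error 0.320, adjusted p = 0.00671), for Cdkn2c 0.77 (standard error 0.106, adjusted p = 0.000258) and for Cdkn2d 0.92 (standard error 0.168, adjusted p = 0.00180, all edgeR). siKEAP1 changed Cdkn1a by 0.91 in control cells and by 0.18 in CCNF-depleted cells, Cdkn1c by -1.61 and -0.19, Cdkn2c by -0.62 and 0.14, and Cdkn2d by -0.77 and 0.15. For Cdkn1b the difference was 0.08 (95% interval -0.12 to 0.28, adjusted p = 0.615, edgeR). Without the libraries that stood apart, the 4 differences were -0.86, 1.08, 0.65 and 0.72 and all passed. Keap1 itself fell less in the combined depletion, with a difference of 0.98 (adjusted p = 6.99e-05, edgeR). Ccnf was already lower after siKEAP1 alone (log2 fold change -0.45). The part of either in the members' values was not tested.

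The kinases that INK4 proteins bind did not move in proportion to them. The summed level of Cdkn2c and Cdkn2d was 97.9 ± 12.5 FPKM (SD, n = 3) in siCONTROL, 60.8 ± 4.11 in siKEAP1, 53.6 ± 2.89 in siCCNF and 59.6 ± 4.05 in siKEAP1/siCCNF cells. That of Cdk4 and Cdk6 was 122 ± 10.1 FPKM in siCONTROL, 121 ± 3.50 in siKEAP1, 43.4 ± 0.647 in siCCNF and 50.9 ± 5.09 in siKEAP1/siCCNF cells. Per FPKM of these kinases, the INK4 mRNA was 0.799 ± 0.0352 in siCONTROL, 0.504 ± 0.0206 in siKEAP1, 1.23 ± 0.0506 in siCCNF and 1.17 ± 0.0463 in siKEAP1/siCCNF cells. The ratio was thus lower than in any siCONTROL library in each siKEAP1 library and higher in each library that received siCCNF. The sum of the kinases is mostly Cdk4, which fell by 1.59 on the log2 scale after siCCNF (adjusted p = 2.56e-08) and fell by 1.34 after siKEAP1/siCCNF (adjusted p = 1.17e-07, both edgeR), and had a log2 fold change of -0.04 after siKEAP1 (95% interval -0.23 to 0.15). Cdk6 had log2 fold changes of 0.27, -0.19 and -0.16 after siKEAP1, siCCNF and siKEAP1/siCCNF, none of which passed. These are levels of mRNA, and protein was not measured in these files.

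**Figure D5:**
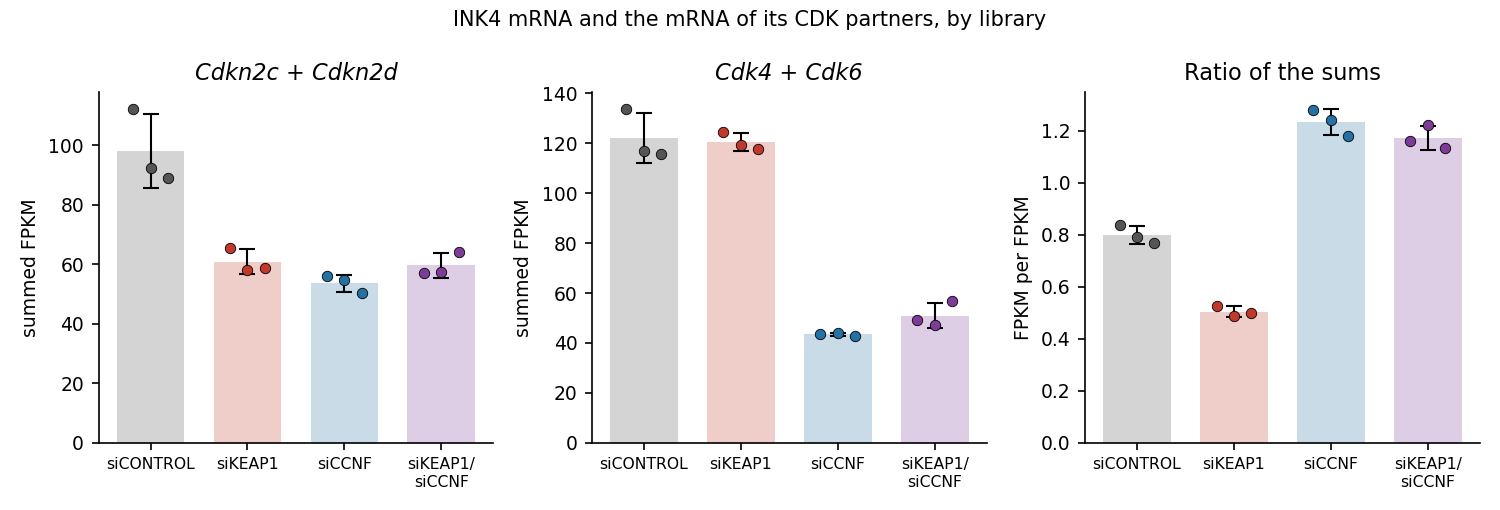
Summed FPKM of the INK4 genes Cdkn2c and Cdkn2d (left), of Cdk4 and Cdk6 (middle) and the ratio of the sums (right) in the 4 siRNA groups, with points for libraries, bars for the mean of 3 and error bars for the SD. The ratio was 0.504 after siKEAP1 and 1.23 after siCCNF, compared with 0.799 in siCONTROL cells.

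Among CDK and cyclin partners of the inhibitors, Cdk4 and Cdk6 included, 12 of 13 listed genes were tested. 1 rose and 8 fell after siKEAP1 (median log2 fold change -0.45), 1 rose and 8 fell after siCCNF (-0.90) and 8 fell after siKEAP1/siCCNF (-0.60). Of all genes tested, 20.4% rose and 20.2% fell after siKEAP1, 22.5% and 25.5% after siCCNF, and 20.6% and 23.6% after siKEAP1/siCCNF. Ccnd1, the cyclin D1 gene, rose by 1.02 after siKEAP1 (adjusted p = 2.42e-06) but fell by 1.12 after siCCNF (adjusted p = 1.05e-06, both on the log2 scale by edgeR). Ccne1, a cyclin of CDK2, fell by 1.32 after siKEAP1 (adjusted p = 1.87e-07) and rose by 0.27 after siCCNF (adjusted p = 0.0220, both edgeR). Ccne2 fell in each, with log2 fold changes of -0.48, -1.15 and -1.32 after siKEAP1, siCCNF and siKEAP1/siCCNF, all past the threshold. So did Cdk2, with -0.80, -0.50 and -0.47 (adjusted p = 1.28e-06, 5.45e-05 and 0.000112, edgeR). The pocket protein genes Rb1, Rbl1 and Rbl2, whose products CDK4 and CDK6 phosphorylate, all fell after siCCNF (median -0.93) and after siKEAP1/siCCNF (-0.76), Rb1 with log2 fold changes of -1.47 and -1.37, whereas after siKEAP1 Rb1 rose by 0.27 (adjusted p = 0.0265, edgeR) and the others did not pass.

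Of p53 targets other than Cdkn1a, 20 genes were listed and tested. After siKEAP1, 15 rose and 1 fell, with a median log2 fold change of 0.71 against -0.01 over all genes. Gdf15, a stress cytokine, rose by 2.28 (adjusted p = 3.63e-08), Perp by 1.87 (adjusted p = 1.01e-05), Trp53inp1 by 1.72 (adjusted p = 1.24e-06) and Mdm2, the ubiquitin ligase of p53, by 1.13 on the log2 scale (adjusted p = 7.54e-07, all edgeR). Sesn1 fell by 0.58 (adjusted p = 0.000578, edgeR). After siCCNF, 11 rose and 5 fell (median 0.34), led by Sesn2, Plk2 and Zmat3 (log2 fold changes 1.62, 1.26 and 1.01), and after siKEAP1/siCCNF 12 rose and 2 fell (0.44), led by Sesn2, Perp and Fas (1.68, 1.11 and 1.06). For 11 of the 20, none in the other direction, the effect of siKEAP1 was lower in CCNF-depleted than in control cells, as it was for Cdkn1a, where 10.5% of all genes were called in this direction. Several listed genes, Sesn2 and Gdf15 among them, are also known targets of the stress factor ATF4. Trp53 mRNA itself had log2 fold changes of 0.12 and -0.01 after siKEAP1 and siCCNF, which did not pass, and rose by 0.23 after siKEAP1/siCCNF (adjusted p = 0.0128, edgeR).

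Other genes that set the level of the inhibitors changed less uniformly. Of 13 ubiquitin ligase genes known to act on CIP/KIP proteins, 2 rose and 4 fell after siKEAP1 (median -0.18), 2 rose and 6 fell after siCCNF (-0.11) and 1 rose and 6 fell after siKEAP1/siCCNF (-0.08). Skp2, the F-box protein that recognises p27, had log2 fold changes of -0.74, -0.94 and -0.76 (adjusted p = 1.84e-06, 1.75e-07 and 1.35e-06, edgeR), and Cdc20, which activates the anaphase-promoting complex, of -0.42, -1.40 and -1.02. Of 17 tested transcriptional regulators of the inhibitors (18 listed), 1 rose and 4 fell after siKEAP1 (median 0.0008), 2 rose and 6 fell after siCCNF (-0.14) and 3 rose and 8 fell after siKEAP1/siCCNF (-0.20). For both lists, the shares of all genes tested that passed in either direction were 40.6%, 47.9% and 44.2%, in the same order. Foxo3 rose in each (by 0.40, 0.43 and 0.39), whereas Foxo1 fell after siCCNF (-0.34) and with both siRNAs (-0.39), and Foxo4 with both (-0.26). Ezh2 fell in each comparison (by 0.53, 0.52 and 0.48), as did Bmi1 (by 0.34, 0.75 and 0.65), all past the threshold. Egr1 fell in each as well, with log2 fold changes of -1.02, -0.38 and -0.46 (adjusted p = 9.75e-08, 0.000401 and 9.16e-05, edgeR). Klf4 had log2 fold changes of 0.14, -1.32 and -1.29, and E2f1 of -0.33, -1.08 and -0.88, in the same order. All of these but that of Klf4 after siKEAP1 passed the threshold.

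Proliferation genes did not rise where the INK4 genes fell. Of 15 such genes, 11 fell and none rose after siKEAP1 (median log2 fold change -0.43), and all 15 fell after siCCNF (-0.96) and after siKEAP1/siCCNF (-0.66). Among all genes tested, 20.2%, 25.5% and 23.6% fell, in the same order. The list shares Cdk1 and Ccna2 with the CDK partners. Among the 15, the largest falls in log2 fold change were those of Top2a after siKEAP1 (-0.79) and Mcm6 after siCCNF (-1.41) and with both siRNAs (-1.06). In CCNF-depleted cells siKEAP1 gave 9 higher and none lower, where 3% of all genes were higher. For 12 of the 15 its effect differed upward from that in control cells, against 10.6% of all genes. The summed level of the 15 genes was 817 to 838 FPKM in siCONTROL, 651 to 686 after siKEAP1, 411 to 457 after siCCNF and 513 to 539 after siKEAP1/siCCNF. Like the levels of Cdkn2c and Cdkn2d it was lower in each depleted group, and its part in their levels was not tested.

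Muscle genes fell in each depletion. Of 15 tested myotube differentiation genes (20 listed), 13 fell and 1 rose after siKEAP1 (median -3.25), 12 fell after siCCNF (-1.41) and 13 fell after siKEAP1/siCCNF (-2.75). In these comparisons 20.2%, 25.5% and 23.6% of all genes tested fell, and 20.4%, 22.5% and 20.6% rose. Of 8 myoblast markers, 7, 7 and 8 fell (-0.66, -1.22 and -1.18), Myod1 with log2 fold changes of -1.73, -1.58 and -1.50, and their summed level was 441 to 514 FPKM in siCONTROL, 254 to 262 after siKEAP1, 213 to 219 after siCCNF and 206 to 230 after siKEAP1/siCCNF. Of the other cell types, 2 adipocyte markers of 5 were tested and both rose after siKEAP1, Fabp4 by 4.94 and Pparg by 1.69 on the log2 scale, with summed levels of 9.74 to 11.2 FPKM against 2.24 to 3.62 in siCONTROL. Of these, 1 rose after siKEAP1/siCCNF and none after siCCNF. Of 3 tested osteoblast markers of 5, 1, 2 and 1 rose, Alpl in each (by 2.02, 3.92 and 3.94), and the sums ranged from 7.17 to 12.2 FPKM over all groups. Counts per library were as low as 1 for Fabp4 and 0 for Alpl, so the size of their changes is uncertain. Of 3 tested macrophage markers of 5, 1 rose and 1 fell after siKEAP1, and 2 rose after siCCNF and after siKEAP1/siCCNF (Cd68 by 2.90, 1.25 and 1.55), with sums from 2.35 to 3.03 FPKM in siCONTROL and from 4.53 to 9.31 in the depleted groups. The 1 tested endothelial marker of 5, Cdh5, fell after siKEAP1/siCCNF, with sums of at most 0.294 FPKM. Adipocyte sums were high in the group in which Cdkn1a was high, and their part in its rise was not tested.

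Across the 12 libraries, correlations of the members are given as a description, since the points share groups and library depths. Cdkn2c and Cdkn2d varied together (Pearson r = 0.955 of log2 CPM, n = 12 libraries), whereas Cdkn1a ran against Cdkn1b (r = -0.88) and Cdkn1c (r = -0.754). Among 11824 genes compared, those most like Cdkn1a were Serpinb6a (r = 0.992), Gdf15 (0.989) and Flvcr1 (0.989). Those most like Cdkn1b were Tmtc2 (0.982), Gk5 (0.979) and Ppp6r2 (0.966). For Cdkn1c they were Cyp51 (0.975), an enzyme of sterol synthesis, Sema6c (0.974) and Sdhb (0.972). For Cdkn2c they were Spc24 (0.992), a part of the kinetochore, Mxd3 (0.983) and Srsf2 (0.981), and for Cdkn2d Zfp410 (0.983), Pdlim4 (0.981) and Lrrc17 (0.977).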

How the data were processed

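RNA of 12 C2C12 libraries was sequenced in 4 siRNA groups of 3. The authors deposited counts of reads per gene without normalization, FPKM values per library, gene length, and log2 fold changes with p-values of their own comparisons, which were not used. FPKM as deposited followed count per length within each library. Per the submitters' processing notes, HISAT2 and GRCm39 were used, whereas identifiers and coordinates in the table are those of GRCm38 (98.3% of 54409 matched genes, and all 7 members, had the same coordinates in GENCODE M21). The counting tool and its use of strand are not given in the sources used here, so reads shared between similar genes are uncertain.

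Counts were fitted with edgeR 4.0.16 in R 4.3.3 (filterByExpr, TMM, quasi-likelihood test, 4 group means, all libraries in 1 model), with Benjamini-Hochberg adjustment of p-values over the 15122 genes tested. A gene was called at an adjusted p under 0.05, with the count over 2-fold beside it. CPM are scaled by TMM, and for log2 CPM in correlations a prior count of 2 was used. The code was tested on simulated data. Totals were 18464209 to 37743198 counts per library. Floors (3 counts) cover counting error only, whereas intervals come from the quasi-likelihood fit and include the spread between libraries. Alternatives were DESeq2 1.42.0, no TMM, other filters, limma 3.58.1 on log2 of FPKM plus 1 or 0.1, a replicate block, removal of a gene length trend (splines with 5 degrees of freedom), a fit of the compared libraries only, and leaving out each library.

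Named genes are the members, Keap1 and Ccnf, the 3 genes most like each member whose mean log2 CPM reached 1, and up to 3 called genes per list with the largest change. Others (Trp53cor1, Lockd and the other neighbours, Myog by library, Mdm2, Sesn1, Trp53, Skp2, E2f1, Foxo1, Foxo3, Foxo4, Ezh2 and Bmi1 beyond that rule) were chosen after their values were seen. The members and lists were chosen with earlier results of these data known.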

Additional observations from a re-analysis of the deposited data

Results flagged for a closer look

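For 4 of the 5 members tested the effect of siKEAP1 differed between CCNF-depleted and control cells, tested as an interaction in edgeR over all libraries. Of all genes tested, 21% passed. The log2 difference was -0.73 for Cdkn1a, 1.422 for Cdkn1c, 0.77 for Cdkn2c and 0.92 for Cdkn2d. siKEAP1 changed these genes by 0.91, -1.61, -0.62 and -0.77 in control cells, in the same order, and by 0.18, -0.19, 0.14 and 0.15 in CCNF-depleted cells. None passed the threshold in CCNF-depleted cells, where 5.19% of all genes did. Over fits that each lacked 1 library, the interaction lay between -0.82 and -0.68 for Cdkn1a, between 1.08 and 1.62 for Cdkn1c, between 0.69 and 0.82 for Cdkn2c and between 0.78 and 1.00 for Cdkn2d.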

How the results depend on the processing

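With 3 libraries a group, changes near the threshold depended on the setting. Settings that passed the threshold where the reported value did not were, for Cdkn1a after siCCNF, DESeq2 (-0.20) and no TMM (-0.23), and for Cdkn1c after siCCNF, no TMM (-0.55), no filter (-0.51), the replicate block (-0.49) and removal of the length trend (-0.49), which also called Cdkn1b after siKEAP1/siCCNF (0.16). Cdkn1b after siKEAP1 lost its call without a filter (-0.22) and in the compared libraries only (-0.21), and Cdkn2d between siKEAP1 and siCCNF (0.29) passed under settings that kept all libraries, limma apart, and without siCONTROL replicate 1 (0.28) or siKEAP1 replicate 2 (0.36), but not with any other library left out alone. Without TMM the members called after siCCNF were 5, where 7210 of all 15122 genes tested were called. Also requiring over 2-fold left 1 after siKEAP1, 1 for siCCNF, 0 for both siRNAs against siCONTROL, 0 between siKEAP1/siCCNF and siKEAP1, and 1 for the interaction. Of all genes tested it left 11.5%, 11.4%, 10.3%, 14.5% and 6.19%, in the same order. FPKM in limma, with either pseudocount, changed no call. The cause of these shifts was not tested.

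Leaving out each library gave 4 to 5 members called after siKEAP1, 3 to 5 after siCCNF and 2 to 3 after siKEAP1/siCCNF. Of all genes, 5113 to 6686, 6269 to 7672 and 5882 to 6943 were then called, in the same order, out of 15289 to 15555 tested. After siCCNF the log2 fold change ranged from -0.25 to -0.11 for Cdkn1a and from -0.71 to -0.17 for Cdkn1c. After siKEAP1 it ranged from -0.28 to -0.18 for Cdkn1b. After siKEAP1/siCCNF it ranged from -0.85 to -0.37 for Cdkn1c and, with a change of sign, from -0.080 to 0.059 for Cdkn1a (0.059 without siCONTROL replicate 1, 0.02 without siKEAP1/siCCNF replicate 1). Without siCONTROL replicate 1 and siKEAP1/siCCNF replicate 3 together, the values after siKEAP1/siCCNF were 0.02 for Cdkn1a and -0.38 for Cdkn1c.

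The replicate numbers did not clearly pair the libraries, and so few libraries cannot exclude a pairing. Over 18 pairs with the same number, the correlation of deviations from the group means ran from -0.27 to 0.20, and 6 of 12 libraries correlated best with their own number. The highest correlation between libraries of different groups was 0.39, for siCONTROL replicate 1 and siKEAP1/siCCNF replicate 3. These are the libraries that stood apart from their groups. With the number as a block, 5953 genes were called after siKEAP1 in place of 6133, and members called were 5, 4 and 3 in the comparisons of siKEAP1, siCCNF and siKEAP1/siCCNF with siCONTROL. Of all 15122 genes tested, 5953, 7081 and 6509 were called in these comparisons.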
